A study of Mus musculus with 4 samples.

Results

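The genes described here encode the MHC class I molecule and the machinery that loads it with peptide, measured in mouse alveolar macrophages, phagocytes that live in the air spaces of the lung. They are the class I heavy chains H2-D1, H2-K1, H2-L, H2-T23 and H2-M3, the light chain B2m, the peptide transporter subunits Tap1 and Tap2, the loading chaperone Tapbp (tapasin) and the trimming peptidase Erap1. The 10 genes were chosen by name, as the rows that carry these symbols, from 11754 symbols listed and 7236 with counts. A row was present for 9 of the 10, each of these 9 had a count in at least 1 library, and 4 of them (H2-D1, Tapbp, B2m and Tap2) had enough counts to be tested. No row analysed here carries the symbol H2-L.

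The assay was serial analysis of gene expression (SAGE), in which a short tag next to a site of the enzyme NlaIII, which cuts at CATG, stands for a transcript. All cells came from wild-type BALB/c mice. In the day 21 metastasis group (2 libraries), lung metastases were present 21 days after intravenous injection of BNL, a hepatocellular carcinoma line of the mouse. The untreated group (2 libraries) had no injection and no metastases, and no label mentions a sham injection, so the injection itself and the metastases cannot be told apart. Age, sex, the way the macrophages were isolated and whether libraries of the same group stem from different mice are not stated in the labels. P-values therefore measure only the spread between these libraries, part or all of which may be technical.

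Total tag counts were 1783814 and 1630776 on day 21 (replicates 1 and 2), and 1962569 and 2198563 in untreated mice. Between 4754 and 5859 symbols had counts in a library. No library holds a tag with a count of 1, so a tag listed at 0 may have been read once. Levels are given as counts and as CPM, counts per 1000000 of a library whose size was scaled with TMM factors. These are levels per library, so fewer cells of a type and less RNA per cell cannot be told apart.

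As background, a class I molecule consists of a heavy chain and beta-2-microglobulin and carries a peptide made by the proteasome in the cytosol. TAP1 and TAP2 together form the pump that brings peptides into the endoplasmic reticulum, tapasin bridges the pump and the empty class I molecule and favours well-fitting peptides, and ERAP1 trims peptides that are too long. H2-K, H2-D and H2-L are the classical chains seen by cytotoxic T cells, while H2-T23 (the Qa-1 antigen) and H2-M3, which presents N-formylated peptides, are non-classical. BALB/c mice carry another H2 haplotype than the reference strain, and the heavy chain genes are alike in sequence, so that 1 base can decide which gene a tag is assigned to.

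The 9 genes with a row had 29 listed tags, of which 25 had counts and 10 had enough counts to be tested. The main tags of the tested genes are shown, 5′ to 3′, because their position in the transcript matters for the values that follow. Capitals mark the NlaIII site.

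H2-D1 tag 1: CATGtgacccatcaccccagatcta

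H2-D1 tag 2: CATGctaccctgagctgcagctcct

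H2-D1 tag 3: CATGgattgagaatgcttagaggtt

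Tapbp tag 1: CATGgcaacagtggtgctgaccgtc

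Tapbp tag 2: CATGtgtctccctcgcggactaaag

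Tap2 tag 1: CATGtacggggatatgctgagcaac

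B2m tag 1: CATGgctcgctcggtgaccctggtc

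B2m tag 2: CATGatgctctgaagattcatttga

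Positions come from an exact match of each tag to GENCODE M21 transcripts on the reference build GRCm38, which is not the build of the deposited tables. H2-D1 tag 1 lies in exon 4 of 8 of H2-D1, in coding sequence (chr17:35265798-35265822, plus strand), and H2-D1 tags 2 and 3 lie in the 3′ UTR in exon 8 (chr17:35267122-35267146 and chr17:35267414-35267438). Tapbp tag 1 spans the junction of exons 3 and 4 in coding sequence and Tapbp tag 2 is in the 3′ UTR (chr17:33929103-33929127). Tap2 tag 1 is in coding sequence of exon 8 of 12 (chr17:34214026-34214050). B2m tag 1 covers the end of the 5′ UTR and the start of the coding sequence in exon 1 of 4 (chr2:122147737-122147761), and B2m tag 2 spans exons 3 and 4 in the 3′ UTR.

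Several class I genes share the stretch that gives H2-D1 tag 1, and their tags differ from it by 2 to 4 bases. They are shown aligned, since these few bases decide under which symbol a tag is listed. Capitals here mark the bases that differ from H2-D1 tag 1.

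H2-D1: catgtgacccatcaccccagatcta

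LOC100045864: catgtgacccatcaccGcagaCctG

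LOC100044874: catgtgaccTatcaccccagatctC

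H2-T9: catgtgacccatcaccccagaCctG

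H2-T23: catgtgacccatcacccTagatctG

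LOC100504882: catgtgacccatcaccccaTatctG

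H2-T22: catgtgacccGtcaccccagaCctG

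H2-M3: catgtgGcccatcacccGagaCcCa

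Counted from 1 at the first base after CATG, H2-T23 differs by C14T and A21G, and H2-M3 by A3G, C14G, T18C and T20C. LOC100045864, a predicted gene model with no match in the gene table used, differs by C13G, T18C and A21G. LOC100044874, another such model, differs by C6T and A21C. LOC100504882 differs by G16T and A21G and had 5 and 7 counts on day 21 against 0 and 2 untreated. The tags do not separate all genes: that of H2-T9 matches a transcript of H2-M5, and that of H2-T22 matches 6 genes. The tag of H2-T23 also matches the transcript of a second gene, Gm9574, so its counts cannot be assigned to H2-T23 alone.

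The heavy chain H2-D1 (chr17:35262730-35267499) was counted 605 and 830 times on day 21 (replicates 1 and 2) and 325 and 976 times in untreated mice. These are 344 and 587 CPM against 159 and 396 CPM. The highest value was the second day 21 metastasis library and the lowest the first untreated one, and the groups overlapped, since the second untreated library lay above the first of day 21. The means were 466 ± 172 CPM on day 21 and 278 ± 168 CPM untreated (SD, n = 2). The log2 change, day 21 metastasis minus untreated, was 0.75 ± 0.61 (SE), with an adjusted p of 0.998 in edgeR's quasi-likelihood test, and H2-D1 did not pass. Without the first untreated library the log2 change was 0.23, and without the second it was 1.58, with neither past the threshold.

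The other heavy chains had few counts. H2-K1 (chr17:33996017-34000347), the other classical chain with a row, had 2 counts in the first day 21 metastasis library and none in the other three. H2-T23 (chr17:36029773-36032855) had 2 and 12 counts on day 21 against 0 and 4 untreated. H2-M3 (chr17:37270220-37274484) had 2 and 5 counts against 0 in both untreated libraries, and with 1 listed tag a value of 0 or 1 reads allows up to 4.74 counts, so no fold is given. None of these had enough counts for a test, and no difference could be detected with the tags listed at this depth.

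B2m (chr2:122147686-122153083), the light chain of every class I molecule, was counted 10 and 56 times on day 21, and 2 and 136 times in untreated mice. These are 5.68 and 39.6 CPM against 0.976 and 55.2 CPM. In each group the first library was low and the second high, and the day 21 metastasis values lay between the untreated ones. The means were 22.7 ± 24.01 and 28.1 ± 38.4 CPM (SD, n = 2), and the log2 change was -0.33 ± 0.99 (SE; edgeR quasi-likelihood test, adjusted p = 0.998). This value changed with the libraries kept and with the model. Without the second untreated library the log2 change was 4.46, set against a single untreated library with 2 counts. Without the first day 21 metastasis library it was 0.55, and without the second it was -2.27. With limma-voom on all 4 libraries it was 0.83.

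The ratio of the chains moved with B2m. There were 60.5 and 14.8 counts of H2-D1 for each count of B2m on day 21, and 162.5 and 7.18 in untreated mice. An assembled class I molecule holds 1 of each chain, but the genes were not read at like sites, so these ratios do not compare amounts. B2m has listed tags at NlaIII sites 2, 3 and 5 of 5 from the 3′ end, and none at the last site. The H2-D1 counts include a tag at the last site, which also matches H2-K1. The widest values came from the libraries with fewest B2m counts, 2 and 10. H2-D1 per count of Tapbp was 3.20 and 3.28 on day 21 against 2.46 and 4.21 untreated, a far narrower range.

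Tap2 (chr17:34203527-34216321), a subunit of the peptide pump, had 22 and 47 counts on day 21 against 9 and 14 in untreated mice. These are 12.5 and 33.3 CPM against 4.39 and 5.69 CPM. Both day 21 metastasis libraries lay above both untreated ones, and the day 21 values were farther apart than the untreated ones. With means of 22.9 ± 14.7 and 5.04 ± 0.914 CPM (SD, n = 2), the log2 change was 2.16 ± 0.79 (SE), a fitted fold of 4.46. The unadjusted p was 0.0116 and the adjusted p 0.481 in edgeR's quasi-likelihood test, so Tap2 did not pass. Its partner Tap1 (chr17:34187553-34197225) had 3 and 2 counts on day 21 against 5 and 0 untreated, too few for a test.

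Tapbp (chr17:33915899-33929292), which encodes tapasin, had 189 and 253 counts on day 21 and 132 and 232 untreated. These are 107 and 179 CPM against 64.4 and 94.2 CPM. The groups did not overlap in CPM, but the gap between the second untreated and the first day 21 metastasis library was smaller than the spread within either group. The means were 143 ± 50.7 and 79.3 ± 21.1 CPM (SD, n = 2), with a log2 change of 0.85 ± 0.63 (SE; edgeR quasi-likelihood test, adjusted p = 0.998). Erap1 (chr13:74639568-74693201), the trimming peptidase, had 3 counts in the second untreated library and none elsewhere.

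**Figure D1:**
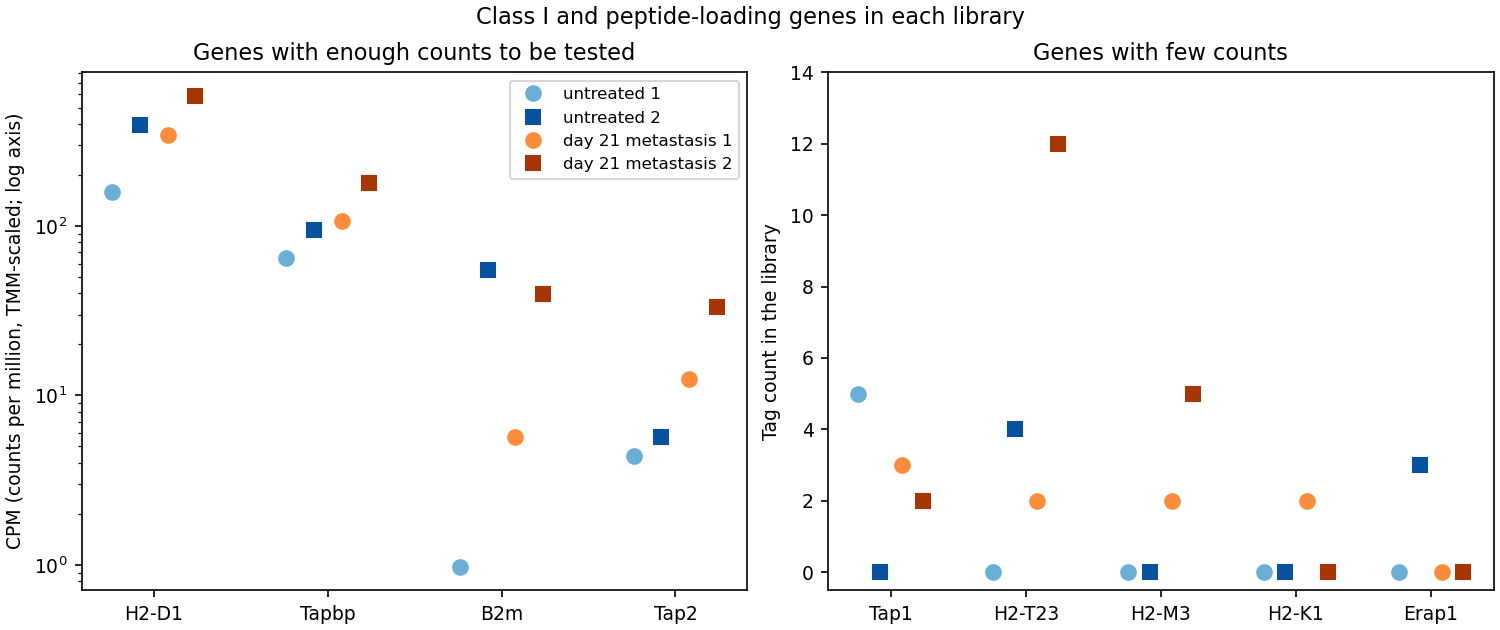
Left, CPM (log axis) of the 4 tested genes in each of the 4 libraries; right, tag counts of the 5 genes that were not tested. Tap2 and Tapbp lie higher in both day 21 metastasis libraries than in both untreated ones, while H2-D1 and B2m overlap, and B2m runs from 0.976 to 55.2 CPM within the untreated group.

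Among the 4 tested genes 3 had a positive log2 change and 1 a negative one, and none passed an adjusted p of 0.05. Over all 2979 genes tested, 22 passed (0.739%), 20 of them higher on day 21 (0.671%) and 2 lower (0.0671%). At an unadjusted p under 0.05 there was 1 member, Tap2, against 168 of all genes tested (5.64%), 105 of which were higher on day 21 (3.52%). Both day 21 metastasis libraries lay above both untreated ones for 2 of the 4 members, against 15.2% of all genes, and 45.6% of all genes had a positive log2 change. The median log2 change of the 4 was 0.80, beside -0.07 over all genes tested. The exact two-sided permutation test of 2 libraries against 2 cannot go below p = 0.333 for a single gene.

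The 4 tested members were also alike in another respect. H2-D1, Tapbp, B2m and Tap2 each had a higher CPM in the library of replicate 2 than in that of replicate 1, in both groups. This held for 34.6% of all genes tested. For H2-D1 and B2m, the libraries of either group lay farther apart than the group means did.

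**Figure D2:**
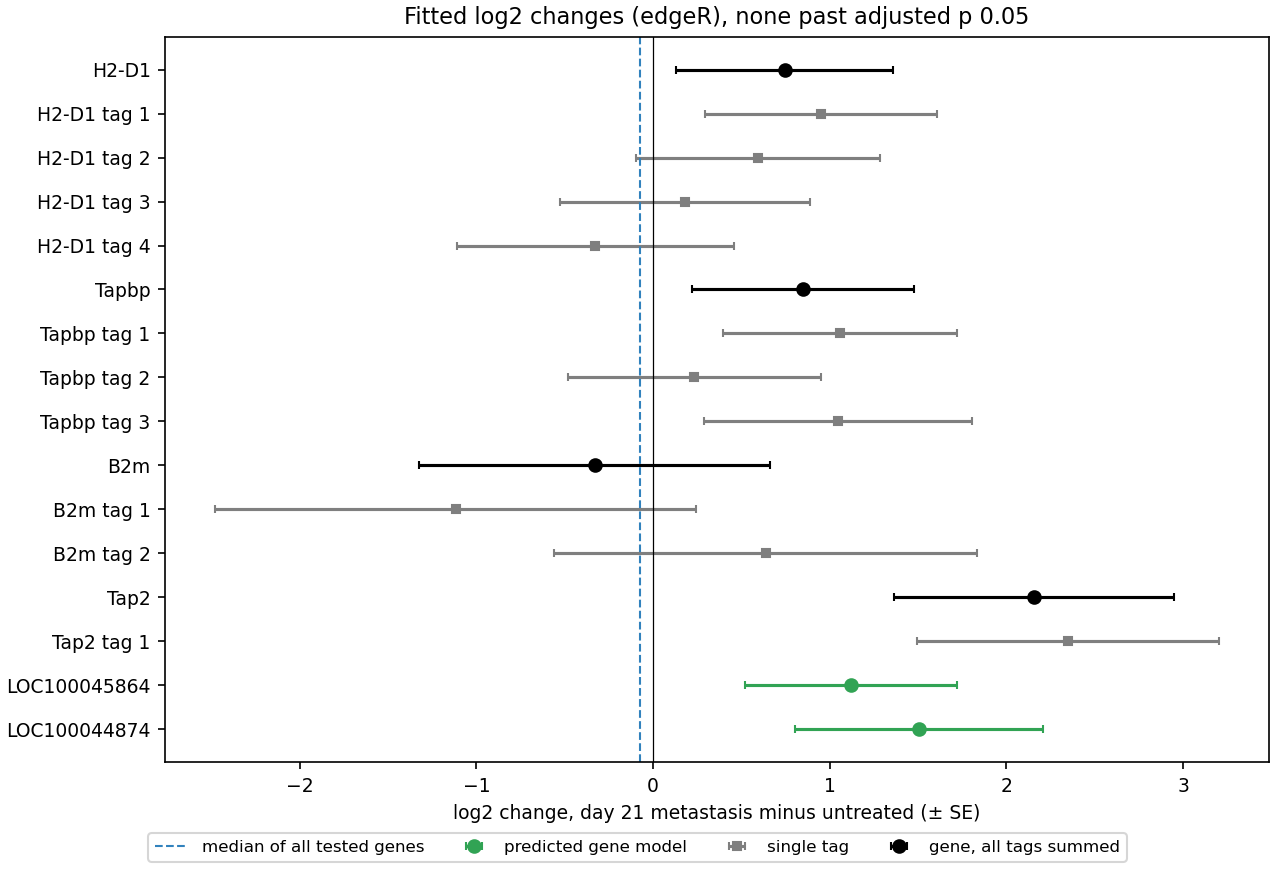
Fitted log2 change, day 21 metastasis minus untreated, with bars of 1 SE, for the 4 tested genes (all tags summed), their 10 tested tags and 2 predicted gene models with related tags. The dashed line is the median of all tested genes, and none of the points passed an adjusted p of 0.05; Tap2 and its tag 1 lie farthest to the right, and the bars of B2m and its tags are the widest.

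The tags of a gene did not all give the same value. Of the 10 tested tags, 8 had a positive log2 change and 2 a negative one, and none passed, against 14 of 3907 tags (0.358%), all of them higher on day 21. A positive log2 change was found in 48.6% of all tags. At an unadjusted p under 0.05 there was 1 member tag, Tap2 tag 1, against 4.89% of all tags, 3.51% being higher on day 21. The median was 0.62 over the 10 tags and -0.03 over all tags. In 4 of the 10, both day 21 metastasis libraries lay above both untreated ones, against 17% of all tags. These were H2-D1 tag 1, Tap2 tag 1, and Tapbp tags 1 and 3, and for H2-D1 tag 1 the nearest libraries of the groups were level, at 219.4 and 219.0 CPM.

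H2-D1 tag 1, in coding sequence of exon 4, had 382 and 568 counts on day 21 against 186 and 568 untreated, a log2 change of 0.95 ± 0.66 (SE). Tag 2 had 141 and 198 against 82 and 262, a log2 change of 0.59 ± 0.69. Tag 3, at the last NlaIII site of the transcript, had 63 and 36 against 41 and 84, a log2 change of 0.18 ± 0.71. Tag 4, in coding sequence of exon 5, had 16 and 22 against 16 and 57, a log2 change of -0.33 ± 0.78. None of the 4 passed edgeR's quasi-likelihood test, and any 2 of the tags differ by less than the sum of their standard errors. The difference between tags itself was not tested. H2-D1 tag 5 had 3 and 6 counts against 0 and 5.

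Tag 3 of H2-D1 matches H2-K1 transcripts as well, and it holds 224 of the 226 counts on H2-K1 sites (99.1%, from tags that match at most 2 genes). Any H2-K1 transcript read at that site is thus counted under H2-D1. The tag that is listed for H2-K1 alone and has counts, H2-K1 tag 1, was seen in 1 library.

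For Tapbp, tag 1 had 119 and 132 counts on day 21 against 63 and 113 untreated, with a log2 change of 1.06 ± 0.66 (SE). Tapbp tag 3, in exon 2, had 26 and 52 counts against 21 and 35, with a log2 change of 1.05 ± 0.76. Tapbp tag 2, at the last NlaIII site, had 34 and 50 counts against 42 and 62, with a log2 change of 0.23 ± 0.71. The 2 tags from coding sequence thus had fitted changes near each other and the 3′ UTR tag a smaller one, apart by more than the standard error of either tag but by less than the sum of both. That difference was not tested. The other 4 tags of Tapbp had 0 to 12 counts per library.

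Tap2 tag 1 carried most of the counts of its gene, with 15 and 27 on day 21 against 4 and 8 untreated, a log2 change of 2.35 ± 0.85 (SE; edgeR quasi-likelihood test over all tags, adjusted p = 0.757). Tap2 tag 2 (exon 2) had 2 and 11 counts against 0 and 6, and Tap2 tag 3 (exon 5) had 5 and 9 against 3 and 0. Tag 4 was seen in 1 untreated library with 2 counts, and the tag at the last site is listed at 0 everywhere. In each of the 3 main tags the highest count was in the second day 21 metastasis library.

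The B2m tags lay far apart. B2m tag 1, at the translation start, had 0 and 24 counts on day 21 against 2 and 88 untreated, with a log2 change of -1.12 ± 1.36 (SE). B2m tag 2, in the 3′ UTR, had 7 and 32 against 0 and 42, with a log2 change of 0.64 ± 1.2. The fitted changes of the 2 tags had opposite signs, and each was smaller than its standard error. In the library with most B2m counts, the second untreated one, tag 1 held 64.7% of the gene's counts (exact Clopper-Pearson 95% interval 56.1% to 72.7%, counting error only), and in the second day 21 metastasis library 42.9% (29.7% to 56.8%).

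**Figure D3:**
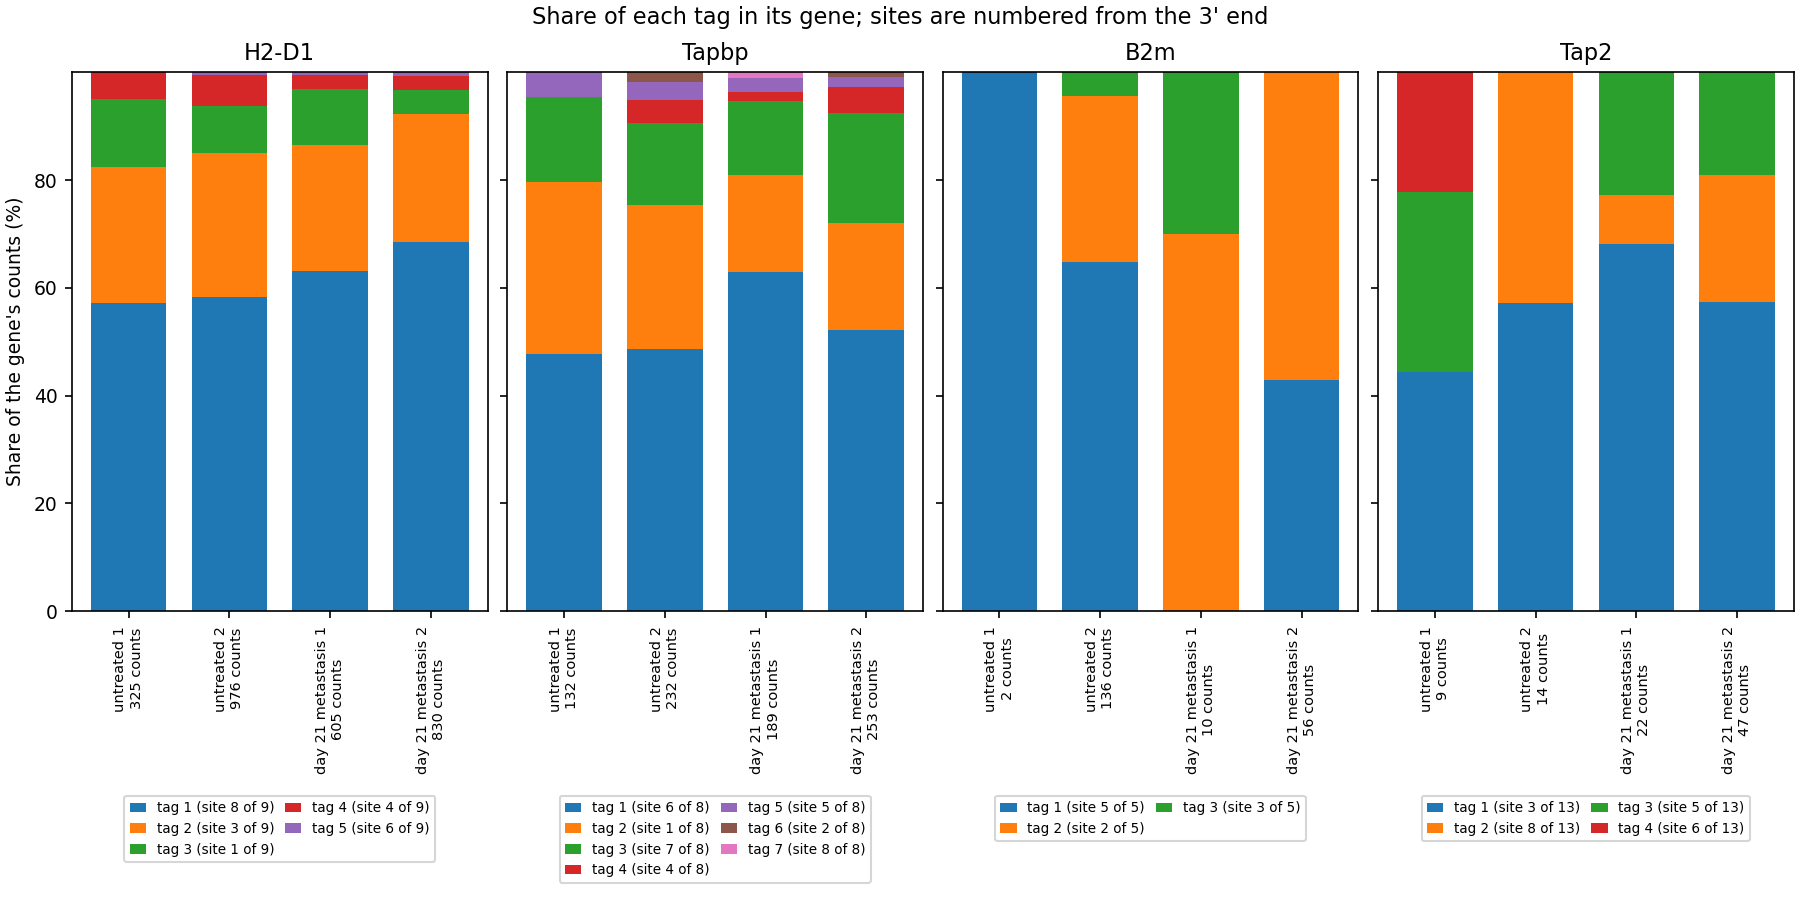
Share of each tag in the counts of its gene (percent, bars add up to 100) for the 4 tested genes in each library, with the gene's count under each bar and tags named by the position of their NlaIII site from the 3′ end. In H2-D1, tag 1 holds 57.2% to 68.4% in every library, while in B2m the tag composition differs from library to library.

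By design SAGE reads the NlaIII site nearest the 3′ end. On the reference transcripts, most counts listed as H2-D1, Tapbp and Tap2 came from other sites. For B2m this cannot be told, because no tag at the last site is listed. Which NlaIII sites the heavy chain transcripts of BALB/c have was not established. H2-D1 tag 1 is at site 8 of 9 from the 3′ end, and it held 63.1% and 68.4% of the H2-D1 counts on day 21 and 57.2% and 58.2% untreated. The share was higher in both day 21 metastasis libraries than in both untreated ones, but not always by more than counting error. The exact Clopper-Pearson interval of the first day 21 metastasis library, 59.2% to 67.0%, overlapped those of both untreated libraries. These were 51.7% to 62.7% and 55.0% to 61.3%. The interval of the second day 21 metastasis library, 65.2% to 71.6%, lay above both. No difference in share between the groups was tested. Tapbp tag 1, at site 6 of 8, held 63.0% and 52.2% on day 21 and 47.7% and 48.7% untreated, with the tag at the last site at 23.3% of all Tapbp counts. For B2m, the listed tags are at sites 2, 3 and 5, for H2-M3 at site 8 of 11 and for Erap1 at sites 7, 11 and 14 of 27, so transcripts read at the last site of these genes were not analysed here.

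A larger tag that matches the reference transcript of H2-D1 is listed under another symbol. It is shown because it outnumbers all tags listed as H2-D1 together. Capitals mark the NlaIII site.

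Related tag 1: CATGgcggcgcagatcacccgacgc

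This tag is deposited as LOC100045864, but among reference transcripts it matches only H2-D1, in coding sequence of exon 3 of 8 (chr17:35263978-35264002, plus strand), at the site nearest the 5′ end. It had 1344 and 2051 counts on day 21 against 439 and 1812 untreated, or 772 and 1415 CPM against 229 and 699 CPM. Both day 21 metastasis libraries lay above both untreated ones in CPM, though not in counts. Its log2 change was 1.24 ± 0.65 (SE; edgeR quasi-likelihood test, adjusted p = 0.999). Over the 6 sites of the H2-D1 transcript with tags of at most 2 genes, it held 67.4% of 8382 counts, and the tags listed as H2-D1 held 32.6%. With this and other tags named by their transcript match, H2-D1 had a log2 change of 1.06 ± 0.60 (SE) and an adjusted p of 0.993 in the same test.

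**Figure D4:**
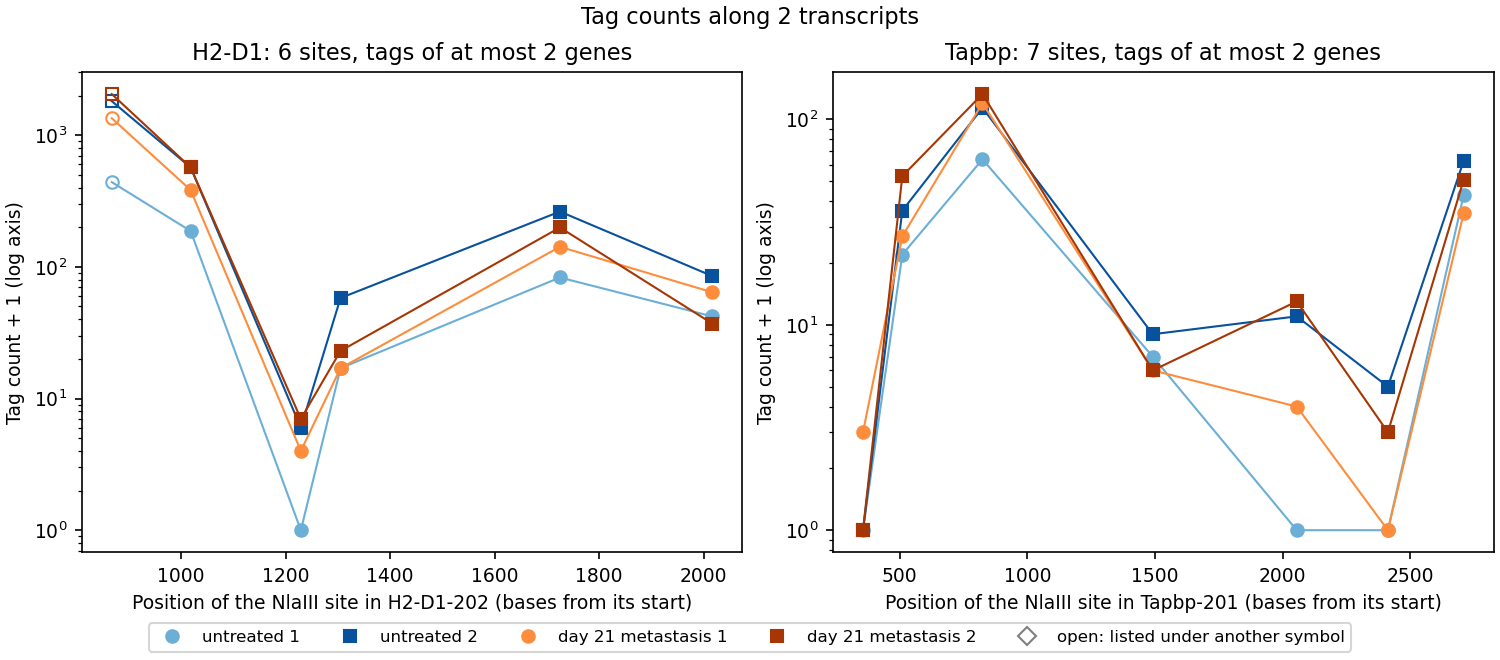
Tag counts plus 1 (log axis) at the NlaIII sites whose tags match at most 2 genes, along the transcripts of H2-D1 (left) and Tapbp (right), by distance in bases from the transcript start, for each library; open symbols are tags listed under another symbol. Among the sites shown, counts along the H2-D1 transcript are highest at the site nearest the 5′ end, whose tag is listed as LOC100045864. Those along the Tapbp transcript are highest at the exon 3 to 4 junction, and both hold in all 4 libraries. Left out are 3 sites of H2-D1 whose tags match 13, 17 and 264 genes.

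The gene model LOC100045864 as a whole had 2071 and 3074 counts on day 21 against 751 and 2889 untreated, more than H2-D1 in every library. Its other main tags differ from H2-D1 tags by 1 to 3 bases and match no reference transcript. One of them differs from H2-D1 tag 3 by G11A and had 79 and 68 counts against 39 and 143. The model's log2 change was 1.12 ± 0.60 (SE; edgeR quasi-likelihood test, adjusted p = 0.955). LOC100044874 had 97 and 124 counts on day 21 against 26 and 92 untreated, with a log2 change of 1.5 ± 0.70 (SE) and an adjusted p of 0.830 in that test. For LOC100044874 the CPM, 55.1 and 87.8 against 12.7 and 37.4, did not overlap between groups. Which BALB/c heavy chain genes these models stand for was not tested.

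Taking the 4 heavy chain members and both models as 1 sum gave 2779 and 4045 counts on day 21 against 1102 and 3961 untreated. This was 0.156% and 0.248% of the library on day 21, and 0.0562% and 0.180% untreated. Exact Clopper-Pearson 95% intervals for counting error ran from 0.150% to 0.162% and from 0.2405% to 0.256% on day 21, and from 0.0529% to 0.0596% and from 0.175% to 0.186% in untreated mice. The groups overlapped in this share too, because the second untreated library was above the first of day 21.

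Other genes of the class I pathway were read from the same fit, in lists written by gene function. Of 25 other class I and class I-like heavy chains, 8 had counts and 3 were tested, with none past the threshold. Fcgrt, the neonatal Fc receptor chain, had a log2 change of -0.15 ± 0.63 (SE), H2-T9 of 0.89 ± 0.74 and H2-T22 of 0.71 ± 0.83. H2-T9 and H2-T22 do not stand for single genes here. Most H2-T22 counts (23 and 41 on day 21, 5 and 57 untreated) came from a tag that matches 13 genes, H2-D1 and H2-T23 among them, and the H2-T9 tag matches the transcript of H2-M5. H2-T9 lay higher in both day 21 metastasis libraries, at 20.4 and 21.2 CPM against 6.83 and 15.4 CPM.

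Peptide supply showed no called gene either. All 5 genes of the immunoproteasome and its activator were tested, 2 with a positive log2 change, and their median was -0.16. Psmb8, an immunoproteasome subunit, averaged 303 ± 30.5 CPM on day 21 and 224 ± 16.1 CPM untreated (SD, n = 2), a log2 change of 0.44 ± 0.58 (SE). Psmb9 had a log2 change of 0.71 ± 0.65 and Psmb10 of -0.16 ± 0.70. Of 4 constitutive counterparts 2 were tested, Psmb6 at 0.79 ± 0.62 and Psmb5 at 0.06 ± 0.75. Of 8 symbols of peptidases, in which nardilysin stands under an older and a newer name, 3 were tested. They were Npepps, a cytosolic aminopeptidase (-1.05 ± 0.76), Thop1 (0.17 ± 0.72) and Nrd1 (-0.01 ± 0.73).

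Folding helpers of the endoplasmic reticulum were tested for 4 of 8 genes. Each of the 4 had a fitted change above 0 (median 0.35), and none passed. P4hb, the disulfide isomerase, was at 177 and 211 CPM on day 21 against 83.9 and 98.3 CPM untreated, and the groups did not overlap. Its log2 change was 1.09 ± 0.61 (SE; edgeR quasi-likelihood test, adjusted p = 0.993). The lectin chaperone calnexin (Canx) had a log2 change of 0.38 ± 0.66, and Hspa5, the general chaperone BiP, of 0.15 ± 0.58. Of 12 genes of cross-presentation, the route by which phagocytes load class I with taken-up antigen, 7 were tested, 4 with a positive log2 change, and none passed. Cyba and Cybb, the membrane chains of the phagocyte oxidase, had log2 changes of 0.73 ± 0.61 and 0.12 ± 0.66, and Sec61b, of the translocon, of 0.47 ± 0.55.

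Interferon is the known inducer of class I genes, and its receptors and targets were read in the same way. Of 7 interferon receptor and kinase genes 3 were tested and none passed, with Ifngr1 at -0.01 ± 0.64 (SE), Ifngr2 at 0.45 ± 0.68 and Jak1 at 0.99 ± 1.02. Of 22 interferon-stimulated genes 20 had a row, 10 of these had counts, and 10 (among them Rsad2, Usp18, Iigp1 and Cxcl9) are listed at 0 in every library. The 4 tested had positive changes with a median of 0.36, and none passed. Those of highest mean CPM were Stat2 at 0.20 ± 0.67, Ifi35 at 0.23 ± 0.71 and Oas1a at 0.49 ± 0.77. The remaining tested gene, not named here, had a change no smaller than that of Oas1a. In 1 gene of the list, none of those named, both day 21 metastasis libraries lay above both untreated ones. Among 11 transcription factors of class I genes, 4 were tested and none passed, with Irf8 at 1.23 ± 0.78, Rfxank at -0.22 ± 0.70 and Rela at -1.09 ± 0.89. No row carries Nlrc5, the class I transactivator.

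Of 9 symbols on a list of receptors of myeloid cells, some of which bind class I, 4 were tested and none passed. Pirb and Lilrb3 on this list name the same gene. Pirb, an inhibitory receptor deposited as Lilrb3, had a log2 change of 0.24 ± 0.69 (SE), Lilra5 of -0.65 ± 0.73 and Lrp1 of -1.06 ± 0.69. The class II genes, which present peptides to CD4 T cells, held the only called gene of these lists. H2-Eb1, a class II beta chain, was at 9367 and 3674 CPM on day 21 against 1286 and 664 CPM untreated, and its log2 change was 2.74 ± 0.58 (SE; edgeR quasi-likelihood test, adjusted p = 0.0182). Of the other tested class II genes, Cd74, the invariant chain, was at 1.08 ± 0.66 and H2-DMa at -0.46 ± 0.51, neither past the threshold. The difference between H2-Eb1 and the class I genes was not tested.

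Markers of the labelled cell type and of others were summed in each library. Alveolar macrophage markers had counts for 11 of 12 genes, with Fabp4 at 0, and their sum was 1608 and 3678 CPM on day 21 against 1161 and 2752 CPM untreated. The leading ones were Chil3 (deposited as Chi3l3) at 1041 and 2758 CPM against 328 and 1186 CPM, and Ear2 at 302 and 662 CPM against 230 and 823 CPM. Neutrophil markers had counts for 5 of 10 genes, with Mpo and Cxcr2 at 0, and their sum was 75.5 and 278 CPM against 9.27 and 158 CPM. The order of the 4 libraries in both sums is that of H2-D1. Cyba, Cybb and Psmb9 had this order as well, while P4hb and Canx did not. Its share over all genes was not counted, but 34.6% of all genes tested had replicate 2 above replicate 1 in both groups. The alveolar macrophage sum rests on few genes: 3 of the 10 tested markers had a positive log2 change, the median was -0.59 beside -0.07 over all genes, and none passed, with 4 at an unadjusted p under 0.05. Camp led the neutrophil list at 68.7 and 249 CPM against 9.27 and 139 CPM, followed by S100a9 at 5.11 and 19.1 CPM against 0 and 12.2 CPM.

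Markers of monocyte-derived and interstitial macrophages, when summed, lay higher in both day 21 metastasis libraries than in both untreated ones. Counts were present for 11 of 12 genes, and their sum was 2155 and 3254 CPM on day 21 against 55.6 and 114.5 CPM untreated, and 5 of the 7 tested genes passed the threshold, all higher on day 21. Among them were Apoe at 1724 and 2697 CPM against 28.3 and 78.0 CPM, and Ms4a7 at 241 and 242 CPM against 14.6 and 6.90 CPM. Lung epithelial markers had counts for 2 of 11 genes, with sums of 19.3 and 4.95 CPM against 53.2 and 28.8 CPM, almost all of it Epcam, which is also on the list of 8 hepatocyte and tumour markers. Of the 10 dendritic cell, 12 T and NK cell and 8 B cell markers, 3, 5 and 3 had a row, and all of these are listed at 0 in every library. The part of other macrophages, of neutrophils and of the epithelial markers in the class I values was not tested.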

How the data were processed

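RNA of alveolar macrophages was read by SAGE in 4 libraries. Per the file headers, the deposited tables hold raw counts of 21-base tags, each with a gene symbol. The submitters' processing notes name the genome build mm9; which tool matched the tags and which counts were filtered out is not given in the sources used here. Counts of all tags of a deposited symbol were summed (30627 tags listed, 15785 with counts).

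Genes and tags were tested with edgeR 4.0.16 (R 4.3.3), quasi-likelihood test, TMM factors (0.866 to 1.12), filterByExpr (minimum count 10, minimum total 15), group as the only term, with Benjamini-Hochberg adjustment over all 2979 genes or 3907 tags and a threshold of 0.05. The biological coefficient of variation was 0.482 for genes. The SE was derived from the log2 change and its F statistic. Tags were matched exactly, with CATG, to GENCODE M21 transcripts, sense strand. Alternatives included other scalings, limma-voom (limma 3.58.1) and DESeq2 1.42.0, no filter, other tag groupings, a replicate block and leaving out each library. Naming tags by their transcript match was added after the data were seen. PCR copies were not told apart, so intervals and limits for 0 hold for counting error alone.

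The members and lists were chosen with earlier results of these data known. Named are all members and all their tested tags, with part of the tags that had fewer counts. Of each pathway list, the genes past the threshold and up to 3 tested genes of highest mean CPM are named. Of each marker list, values are given for at most 2 genes of highest mean CPM. Scgb1a1, Afp and the called macrophage markers other than Apoe and Ms4a7 were left out. H2-T9, H2-T22, LOC100045864, LOC100044874 and related tags were added for their sequence, and the interferon-stimulated genes at 0 were picked as examples.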

Additional observations from a re-analysis of the deposited data

How the results depend on the processing

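Over 15 alternatives the log2 changes of H2-D1 (0.23 to 1.58), Tapbp (0.47 to 1.23) and Tap2 (1.33 to 2.76, adjusted p 0.120 to 0.9999) stayed positive and past no threshold. Of 60 values for the 4 genes, 4 changed sign, all for B2m: 0.83 with limma-voom, 0.29 with the replicate block, 0.55 without day 21 metastasis replicate 1 and 4.46 without untreated replicate 2, with -2.27 as the lowest on leaving out a library. The number of members past the threshold was 0 except without untreated replicate 2, where it was 1 (0 to 1 over the left-out libraries).

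The count of all genes past the threshold was 22, and it was 9 with total counts alone, 12 with limma-voom, 41 with no filter, 37 with the replicate block, 11 from tags of 1 gene, 9 from the most abundant tag and 9 to 81 on leaving out a library (9 without untreated replicate 1, 81 without untreated replicate 2). For tags it was 14, and 5 with limma-voom, 34 with no filter, 156 with the replicate block and 17 to 96 on leaving out a library. The causes were not tested. Total counts alone moved the median log2 change of all genes from -0.07 to -0.29.

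Of 110 values for the 10 member tags, 9 changed sign and 2 passed the threshold. H2-D1 tag 3 was at -0.042 with total counts alone, -0.10 without day 21 metastasis replicate 1, -0.08 without untreated replicate 1 and 0.53 at most. H2-D1 tag 4 was at 0.01 without day 21 metastasis replicate 1 and 0.55 without untreated replicate 2, with -0.86 as its lowest, and Tapbp tag 2 at -0.20 without day 21 metastasis replicate 2, with 0.61 as its highest. B2m tag 1 was at 2.89 without untreated replicate 2, and at -8.21 without day 21 metastasis replicate 2, which left a day 21 count of 0 and so gives no bound. B2m tag 2 was at -1.01 without day 21 metastasis replicate 2, -0.34 without untreated replicate 1 and 7.47 without untreated replicate 2 (adjusted p = 0.0244 in edgeR), where the 1 untreated library left has a count of 0, so this value is no bound and its p rests on that library. The number of member tags past the threshold was 1 there (0 to 1 over the left-out libraries).

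The groups share replicate numbers, which no label ties to a batch or mouse. Deviations of same-numbered libraries correlated at r = 0.54 over genes, which are not independent replicates, and with only 2 pairs the numbers were not taken as pairing. With the replicate block Tap2 was at 2.07 (adjusted p = 0.120), H2-D1 at 0.84 (0.433) and Tapbp at 0.83 (0.434), and 1 member tag passed, Tap2 tag 1 (2.34, adjusted p = 0.0458 in edgeR). Few counts limit H2-K1, H2-T23, H2-M3, Tap1 and Erap1, each with at most 12 in a library. Depth is not the only limit, since H2-M3 and Erap1 have no listed tag at the last NlaIII site. The tag at the last site of H2-K1 is listed under H2-D1, and that of H2-T23 matches 108 genes.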
